A study of Mus musculus with 26 samples.

Results

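The WT KLF4 sites described here are 1090 short segments of the mouse genome where a peak was called in both samples of cells with wild-type KLF4, where neither sample of cells without KLF4 had a peak, where the samples with mutant KLF4 had no shared peak, and which lay in chromatin that was accessible in mouse embryonic stem cells (mESC). They made up 31.9% of the 3419 segments that both wild-type peak lists shared, and they lay in 1088 of 66726 accessible regions, or 1.63%. The study combined tagmentation by a transposase that carries methylated adaptors with bisulfite conversion, so that accessibility (M-ATAC) or factor binding (M-ChIP) and DNA methylation are read from the same fragments. The peak lists behind the sites came from KH2 mESC in which Klf4 was knocked out (KLF4 -/-), and the groups were cells that re-expressed WT KLF4 (2 samples, M-ATAC-WT), cells that re-expressed the R462A mutant, with an arginine replaced by alanine (2 samples, M-ATAC-Mut), and knockout cells in which KLF4 chromatin immunoprecipitation was done without any re-expression (2 samples, KLF4-ChIP-KO). WT or mutant KLF4 was supplied by a lentiviral vector with a doxycycline-inducible tetO promoter, puromycin-selected and induced with doxycycline, so its level was set by the vector and not by the Klf4 gene, and all of these cells descend from the same knockout line. Accessibility, methylation, CTCF binding and RNA were measured in other cells, KH2 mESC without the Klf4 knockout. They were grown with LIF and serum on irradiated feeder cells that were then removed by pre-plating. There were 4 M-ATAC samples, 2 aliquots of M-ATAC taken before conversion (M-ATAC-NC), 2 conventional ATAC samples, 6 CTCF samples and 2 RNA-seq samples. Nothing in the labels says that replicates came from separate cultures, so a p-value given here measures the spread between samples, which may be technical.

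KLF4 is a zinc finger transcription factor of the Krüppel-like family that binds GC-rich DNA through the GGG(C/T)G core of the CACC and GC box sequences. In mESC it acts with OCT4, SOX2, NANOG and ESRRB downstream of LIF and STAT3 to keep cells in the naive pluripotent state, and it is among the factors used to convert somatic cells into pluripotent ones. It is among the factors that can bind a motif whose central CpG is methylated as well as the same motif unmethylated. Promoters rich in CpG dinucleotides are usually free of methylation, whereas distal regulatory elements of stem cells often carry low or intermediate methylation.

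The labels and the values of these lists were first set side by side. The WT and mutant lists belong to samples titled M-ATAC, yet they were deposited under library names that carry Klf4, as the KLF4 M-ChIP samples do. Peaks of each list were first merged into 9338 and 11765 segments for WT, 7006 and 5544 for mutant and 8861 and 14263 for knockout. The share of these merged segments that overlapped an M-ATAC region of mESC without the knockout was 28.1% (95% Wilson interval 27.2 to 29.0) in WT replicate 1 and 39.2% (38.3 to 40.1) in WT replicate 2. In the mutant lists it was 1.76% (1.47 to 2.09) and 3.23% (2.79 to 3.73). In the knockout lists, which are titled KLF4 ChIP, it was 61.2% (60.2 to 62.2) and 57.6% (56.8 to 58.4). The mutant lists, titled as accessibility, thus had the smallest share in accessible chromatin of the 3 groups and the WT lists an intermediate one, which goes against reading either as a list of accessible regions. The sites are therefore named by their rule, as segments of the lists from WT cells, and whether each is a place of KLF4 binding rests on the library names and on the peak caller, PeaKDEck, which the methods of the study name for KLF4. The share with letters of the KLF4 consensus, described below, was 43.9% of the sites and 1.2% of segments found in the mutant lists alone. It was 41.1% of accessible segments left out for a knockout peak and 25.9% of the segments outside M-ATAC regions.

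Before merging, the WT lists held 9843 and 12365 peaks, the mutant lists 7390 and 5821, and the knockout lists 9165 and 14841. Of the 3419 segments shared by both WT lists, 1921 (56.2%) lay in M-ATAC regions. Removing segments with a peak in either knockout list took away 1182, of which 820 lay in M-ATAC regions, and left 2237. Removing those that met a segment shared by both mutant lists left 2035, and of these 1090 overlapped an M-ATAC region and 945 did not. The number depends on these steps, as it was 3109 without WT replicate 1, 1881 with knockout peaks kept and 603 in regions present in all 4 M-ATAC replicates. Of the segments removed for a knockout peak, 69.4% were accessible, a higher share than among all shared segments. The sites were 50 to 750 bp long with a median of 400 bp. At the edges of the rule, 12 sites overlapped their region by under 50 bp, the least by 1 bp, and 21 segments that were left out lay within 100 bp of a region, while the median gap of those left out was 7456 bp. Of the sites, 278 lay wholly inside a region. Since only peaks shared by both mutant lists were removed, 9 sites still overlapped a peak of mutant replicate 2 and 1 overlapped a peak of mutant replicate 1. That 1 site lay 22488 bp from the start of Gja1, which encodes the gap junction protein connexin-43 and was expressed at 104.8 TPM, and it was looked up after its values were seen. PeaKDEck gave p-values from 1e-12, the lowest value it lists, and 44 sites had that value in both WT lists. The larger of the p-values of a site in both lists had a median of 3.38e-05 and reached 9.52e-05.

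The sites lay at promoters more often than M-ATAC regions did. Within 3 kb of a transcription start lay 726 of 1090 sites, or 66.6% (95% Wilson interval 63.8 to 69.3), against 39.7% of all M-ATAC regions. The median distance from a site to the nearest start was 287 bp, against 5957 bp for all regions, and 665 sites (61.0%) were within 1 kb. The share was not particular to the sites, since the 1921 accessible segments of both WT lists with knockout and mutant peaks kept, which include the sites, had 67.7% (65.6 to 69.8). Of the 364 sites farther than 3 kb from a start, 38 overlapped an exon, 141 lay in an intron and 185 between genes. Segments from the same lists that were not accessible were placed otherwise, with 27.4% (24.7 to 30.3) at promoters. Segments found in the mutant lists alone, 500 in number, had 15% (12.1 to 18.4) there, and 0.8% of them were in M-ATAC regions at all. The rule used none of these distances. Regions with a site were also wider than the others, with a median of 455 bp against 281 bp, and a wider region can reach a start more often. In 300 bp windows at midpoints, 66.4% of site windows and 39.7% of region windows were at promoters. Both shares were about those of the segments and regions themselves, and the part of width was not tested.

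The sites were spread over 20 chromosomes. Chromosome 8 held the most, 107 sites (9.82%) against 5.11% of M-ATAC regions. Its share of the merged segments of each whole list was higher still, from 10.5% in knockout replicate 2 to 20.2% in mutant replicate 2. The excess was therefore present in lists of cells with WT, mutant and no KLF4 alike, and the values without this chromosome were computed, an alternative chosen after seeing the data. Without it the promoter share was 67.2%, the methylation inside sites 0.675% and the motif share 44.3%, each close to the value with it. Chromosome X held 5 sites and chromosome Y 0.

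DNA methylation inside the sites was very low. The table of M-ATAC cytosines pools replicates, so levels are given as methylated reads over all reads at cytosines with at least 5 reads, with intervals that cover counting error only. Of 559139 reads at 30467 cytosines inside sites, 3802 were methylated, or 0.680% (95% Wilson interval 0.659 to 0.702), with a median of 14 reads a cytosine. In M-ATAC regions without a site it was 1.95% (1.94 to 1.96) over 983546 cytosines, with a median of 9 reads. The difference was -1.27 percentage points (95% Newcombe interval -1.29 to -1.25), and sites were lower on 19 of 20 chromosomes. Its size depends on depth and averaging far beyond this interval, as it was -0.597 at cytosines with at least 10 reads and -1.95 as a mean of percentages, where the level in sites was 1.08%. Every cytosine inside a site lay in a CpG of the reference. No reads were methylated at 91.7% of the cytosines in sites, against 86.2% in the other regions, and 6 cytosines in sites were above 80%. Coverage of over 50 reads was reached by 3.81% of cytosines in sites and by 1.41% of the others. M-ATAC reads only those molecules that were open to the transposase, so these levels describe open copies of a site in a population of cells, and fewer open cells cannot be told apart from fewer open copies per cell.

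The level differed by place and the direction did not. Promoter sites had 0.413% methylation (0.396 to 0.431) and other promoter regions 0.839% (0.833 to 0.844), a difference of -0.426 percentage points (-0.444 to -0.407). Sites away from promoters had 4.01% (3.82 to 4.20) and other distal regions 8.53% (8.49 to 8.57), a difference of -4.52 (-4.71 to -4.32). Distal sites were thus 3.60 percentage points higher than promoter sites (3.41 to 3.79), and in both classes the sites were lower than the other regions. Against the regions that overlapped no peak of any of the KLF4 lists, where methylation was 2.32%, the difference was -1.64. These splits by place and by list overlap were chosen after seeing the data. Regions with a site were also more accessible, with a median merged M-ATAC fold of 11.7 against 7.74 at promoters and 8.89 against 6.66 elsewhere. The part of accessibility in these methylation differences was not tested.

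Within their own M-ATAC regions, the sites were compared with the sequence on either side. Flanks had 0.562% methylation (0.533 to 0.592) over 18388 cytosines, which put the sites 0.118 percentage points higher (95% Newcombe interval 0.0814 to 0.154), and they were higher on 14 of 20 chromosomes. As a mean of percentages the difference was 0.334. In pooled reads the direction turned once regions were split by place, a comparison chosen after seeing the data. In promoter regions the sites had 0.412% and the flanks 0.445%, a difference of -0.0330 (-0.0651 to -0.00172), and away from promoters 4.01% and 4.52%, a difference of -0.503 (-1.04 to -0.00810). Only 756 of the flank cytosines were away from promoters, against 3192 of those in sites, so the pooled flanks held a smaller share of the more methylated class. At promoters the turn held for pooled reads alone. As a mean of percentages over cytosines, also chosen after seeing the data, promoter sites had 0.573% and their flanks 0.539%, and no reads were methylated at 93.9% and 95.2% of cytosines. Away from promoters the means were 5.42% and 5.58%, and no reads were methylated at 72.6% of site cytosines and 77.4% of flank cytosines, a direction opposite to that of the pooled reads. Site cytosines lay a median of 96 bp from the region midpoint and flank cytosines 190.5 bp.

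Single sites with at least 5 cytosines of sufficient depth were mostly unmethylated, with a small methylated tail. A cytosine of sufficient depth was present in 1029 sites, and 61 had none. The reference sequence of 18 sites holds no CG. Among the 1029 sites the median was 270 reads, and 222 had 0 methylated reads. For the 883 sites with at least 5 such cytosines the median level was 0.328%. Of these, 617 were under 1%, 107 (12.1%) were at 5% or more, against 30.4% of all M-ATAC regions with as many cytosines, and 23 were at 20% or more. The 30.4% is over whole regions, and 39.7% of all regions lay at promoters, against 66.6% of all sites. The part of place was not tested. The 10 sites with most methylated reads held 11.2% of all methylated reads and 1.28% of all reads, and without them the level was 0.612%.

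The methylated and unmethylated sites differed in other readouts as well, described here over classes set after seeing the data. Of the 617 sites under 1%, 548 (88.8%) were at promoters, the median M-ATAC fold enrichment was 12.4 and the nearest gene had a median of 17.7 TPM. Of the 159 sites from 1% to 5%, 57.2% were at promoters, with a median fold of 9.92 and a median of 5.32 TPM. The 84 sites from 5% to 20% had 32.1% at promoters, a fold of 11.7 and 5.16 TPM. The 23 sites at 20% or more had 4 at promoters, a fold of 9.19 and 0.325 TPM, and a median distance of 13957 bp to the nearest start. Promoter share fell across the 4 classes, while the median fold did not fall evenly. The median number of ATAC-type libraries with a peak, of 8, was 8, 5, 4 and 3 from the lowest class to the highest, and 390, 38, 20 and 3 sites had a peak in all of them. The share of sites with a KLF4-type motif, defined below, was 38.7%, 42.8%, 42.9% and 60.9% from the lowest class to the highest, which held 14 of 23. Distal sites had a motif more often than promoter sites, and the part of place in this was not tested. Depth moved with these classes too, from a median of 617 reads a site in the lowest to 59 in the highest, and its part was not tested. The 207 sites with fewer than 5 cytosines of sufficient depth, which are in none of the classes, had 405 of 3600 reads methylated, or 11.3% (10.3 to 12.3), with 27.1% at promoters and a motif in 58.5%. Their level was far above that of all sites, at a median of 13 reads a site.

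Accessibility was compared with methylation within each place. Promoter sites with a peak in all 8 ATAC-type libraries, 400 in number, had 0.296% methylation (0.281 to 0.313), the 290 with a peak in some of them 1.02% (0.9505 to 1.093), and the 36 with a peak in none, present only in the merged list, 2.02% (1.58 to 2.57). Distal sites had 2.07% (1.88 to 2.29) for 70 sites in all libraries, 5.23% (4.94 to 5.53) for 225 in some and 10.1% (8.72 to 11.7) for 69 in none. The least accessible sites were the most methylated in both places. Depth fell with these classes too, and its part was not tested. From all libraries to none, the median was 990, 205 and 56 reads a site at promoters and 141, 57 and 15 at distal sites. Distal sites had fewer reads, with a median of 53 a site against 476 for promoter sites. Distal sites under a CTCF peak, 43 in number, had 2.08% (1.78 to 2.43) and the other 321 had 4.43% (4.22 to 4.66), whereas promoter sites with and without a CTCF peak had 0.459% and 0.405%. The 43 distal sites also had more reads, a median of 96 a site against 50, and a higher median M-ATAC fold, 10.6 against 8.69. The part of depth and accessibility in this was not tested.

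Among the 883 sites with at least 5 cytosines of sufficient depth, the 5 most methylated, ranked by the lower bound of the interval, all lay between genes. Of the 146 sites with 1 to 4 such cytosines, 6 had a higher lower bound, on 11 to 25 reads each. The highest of the 883, on chromosome 14 from 75064451 to 75064950 (GRCm38, as all positions here), had 27 of 61 reads methylated, or 44.3% (32.5 to 56.7). It lay 28079 bp from Rubcnl, an autophagy gene listed at 0.09 TPM. A site 4095 bp from 3110015C05Rik had 28 of 69 reads methylated, or 40.6% (29.8 to 52.4). The site 4706 bp from Gm2676 had 30 of 84, or 35.7% (26.3 to 46.4), and unlike the other 4 it was a peak in all 8 libraries, at a merged M-ATAC fold of 14.9. The site 17833 bp from Gm4065 had 21 of 56, or 37.5% (26.0 to 50.6). The site 62994 bp from Gm9314 had 26 of 72, or 36.1% (26.0 to 47.6), with the lowest p of the caller in both WT lists. These sites were accessible and intermediate in methylation at once, at folds of 8.44 to 14.9. Among promoter sites with as many cytosines, picked after seeing the data, the highest was 23 of 75 reads, or 30.7% (21.4 to 41.8), at Gm29807. Next to it in rank stood a site near Mir6901 with 24 of 94 reads, or 25.5% (17.8 to 35.2), and then Podxl, which encodes the sialomucin podocalyxin, with 8 of 33, or 24.2% (12.8 to 41.0), at 2815 bp from the start. Then came 4930579D09Rik with 12 of 59, or 20.3% (12.0 to 32.3), 57 bp from its start and listed at 0 TPM. After it, Sycp3, a component of the meiotic synaptonemal complex, had 29 of 184, or 15.8% (11.2 to 21.7), only 43 bp from its start, and was expressed at 56.3 TPM.

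The least methylated sites, again among those with at least 5 cytosines, all lay at promoters. Mrps14, which encodes a protein of the mitochondrial ribosome, had 0 of 1952 reads methylated at 38 cytosines, with an upper bound of 0.196%. Dnpep, an aminopeptidase gene, had the deepest site, with 7 of 6432 reads methylated, or 0.109% (0.0527 to 0.224). Azi2, an adaptor of innate immune kinase signalling, had 2 of 3063, or 0.0653%. Ppp1r16a, for a regulatory subunit of protein phosphatase, had 0 of 1605 (upper bound 0.239%), and its site also lay within 3 kb of Foxh1, the partner of SMAD proteins in Nodal signalling, at 32.1 TPM. These 4 sites had a peak in each of the 8 ATAC-type libraries, and those at Mrps14 and Azi2 also in all 6 CTCF libraries. Distal sites with as many cytosines could be as low, again picked after seeing the data. The site 4735 bp from Tufm, the gene of a mitochondrial translation factor, had 1 of 960 reads methylated, or 0.104% (0.0184 to 0.588).

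Of the 5 sites on chromosome X, where sites as a whole had 2.69% methylation against 1.24% in other regions, 1 gave most methylated reads. It lay in an intron of Gm21887, had 39 of 660 reads methylated (5.91%, 4.35 to 7.98) and the highest fold of these sites, 31.4. Acot9, which encodes a mitochondrial acyl-CoA thioesterase, had 2 of 906 reads methylated, Fam122b 0 of 101, Gm14918 5 of 61 and Cxcr3, a chemokine receptor gene, 1 of 22. The direction on this chromosome, opposite to the other 19, came with 1 segment that held most of its methylated reads. All were looked up after the values were seen.

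Letters of the KLF4 consensus were searched on both strands in 300 bp windows at the site midpoints. GGGTGTGG has no CpG and GGGCGTGG has 1, and they differ at that base alone, so that a window can hold both. Either was found in 478 of 1090 windows, or 43.9% (95% Wilson interval 40.9 to 46.8), against 11.8% of windows of the same length at all M-ATAC regions. GGGCGTGG was in 30.2% of site windows and in 4.81% of region windows, and GGGTGTGG in 19.0% and 7.39%. GGGCGGGG, the GC box that SP factors share, was in 41.2% against 11.3%, while GGGTGGGG was in 13.6% against 11.8%. Any of these 4 was in 74.7% of site windows and 30.0% of region windows. Over all windows together, the CpG-containing letters were thus the ones that set the sites apart most. Away from promoters, the largest difference in share was that of GGGTGTGG, given below. Base composition moved with the shares over all windows, with a median of 58.3% G and C and 14 CpGs in site windows against 51.7% and 5 in region windows. GGGCGTGG lay close to the middle, a median of 37 bp from the site midpoint, and within 50 bp in 60.5% of the 329 windows that held it, against 43.8% of the 3208 region windows. It occurred more than once in 94 windows, and 58 held both motifs.

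The motif shares were also compared within each place, a split chosen after seeing the data. At promoters, where the median G and C was 61% in sites and 58.7% in regions, 38.6% of sites (35.1 to 42.2) and 12.6% of regions had a motif. Away from promoters it was 54.4% (49.3 to 59.4) and 11.2%, at 53% and 49.3% G and C. At distal sites GGGTGTGG was in 34.6% and GGGCGTGG in 27.5%, against 8.36% and 3.28% of distal regions. At promoter sites they were in 11.2% and 31.5%, against 5.91% and 7.14% of promoter regions, so the order of the pair in each place was that of the regions. The segments outside accessible chromatin had a motif in 25.9% (23.2 to 28.8), at a median of 47% G and C. Segments of the mutant lists alone had GGGTGTGG in 6 of 500 windows, 1.2% (0.551 to 2.59), and GGGCGTGG in 0 of 500, at 41% G and C. Segments left out for a knockout peak but accessible had a motif in 41.1% (37.8 to 44.5), close to the sites. Of the strongest peaks, a motif was in 40.9% of the 44 sites at the lowest p in both lists and in 44.0% of the others, and methylation was 1.49% and 0.649%. A match says only that these letters are in the window.

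The CpG inside GGGCGTGG could be read in 777 cytosines of the sites. Its methylation was 2.04% (1.82 to 2.29, 284 of 13924 reads), against 0.517% (0.486 to 0.550) at the other CpGs of the same sites, a difference of 1.52 percentage points (1.299 to 1.773). Sites away from promoters gave 3002 of these reads but only 9570 of the 191413 reads at the other CpGs, so the pooled difference also holds this unequal mix of places. Away from promoters the motif CpG had 7.79% (6.89 to 8.81, 234 of 3002 reads) and the other CpGs of these sites 3.64% (3.28 to 4.03), a difference of 4.16 (3.17 to 5.23). At promoters it was 0.458% (0.347 to 0.603) and 0.353% (0.326 to 0.381), and the interval of the difference, -0.00864 to 0.253, included 0. In M-ATAC regions without a site, the CpG of these letters was set against the other CpGs of the regions that hold them, a comparison chosen after seeing the data. It was higher by 0.696 percentage points (0.620 to 0.777) at promoters, at 1.14% against 0.440%, and by 6.86 (6.41 to 7.32) elsewhere, at 10.9% against 4.06%. A higher level at GGGCGTGG than at CpGs beside it was thus also present in regions without a site, where the motif CpG stood at a higher level than in sites of the same place. Distal sites with a motif in their window had 4.52% methylation (4.23 to 4.84) over all CpGs and those without 3.62% (3.39 to 3.87), while at promoters the values were 0.424% and 0.406%.

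Several sites held GGGCGTGG many times over. In 25 sites it occurred 3 or more times, and 12 of these lay away from promoters, a group formed after seeing the data. At those 12 the motif CpGs had 70 of 1039 reads methylated, or 6.74%, and at distal sites with fewer copies 8.35%. Lrrc4b alone held 514 of those reads, and without it the value was 68 of 525, or 13.0%, so the direction rested on that site. At promoter sites it was 13 of 1653, or 0.786%, with 3 or more copies and 0.399% with fewer. There Ppp2r3d held 8 of the 13 methylated reads, and without it the value was 5 of 1528, or 0.327%, so that direction rested on 1 site as well. The sequences of some named sites with GGGCGTGG, outside UTRs, are printed below, because the same letters were methylated in some of them and not in others. They were read from the RefSeq copy of GRCm38, each on the strand of the motif, with GGGTGTGG and GGGCGTGG in capitals. The stretch near Rubcnl is chr14:75064613-75064831, minus strand, that near Gm4065 chr10:118787338-118787613, minus strand, both between genes. That of Lrrc4b is chr7:44433427-44433677, plus strand, in an intron, that of Hdgfl2 chr17:56079254-56079498, minus strand and that of Itprid2 chr2:79635142-79635241, plus strand, both outside any annotated gene, and that near Krt8 is chr15:102003180-102003217, plus strand, in an intron of Gm36026.
Rubcnl: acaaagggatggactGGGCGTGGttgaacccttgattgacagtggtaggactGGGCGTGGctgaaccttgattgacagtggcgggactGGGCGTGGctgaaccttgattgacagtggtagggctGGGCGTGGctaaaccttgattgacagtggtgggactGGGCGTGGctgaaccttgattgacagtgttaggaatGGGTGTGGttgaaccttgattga
Gm4065: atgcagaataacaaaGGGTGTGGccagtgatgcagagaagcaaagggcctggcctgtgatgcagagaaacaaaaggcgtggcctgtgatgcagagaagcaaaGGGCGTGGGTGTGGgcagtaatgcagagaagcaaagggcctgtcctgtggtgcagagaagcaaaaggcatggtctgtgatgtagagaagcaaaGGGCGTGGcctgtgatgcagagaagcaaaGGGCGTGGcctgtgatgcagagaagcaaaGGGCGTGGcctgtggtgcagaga
Lrrc4b: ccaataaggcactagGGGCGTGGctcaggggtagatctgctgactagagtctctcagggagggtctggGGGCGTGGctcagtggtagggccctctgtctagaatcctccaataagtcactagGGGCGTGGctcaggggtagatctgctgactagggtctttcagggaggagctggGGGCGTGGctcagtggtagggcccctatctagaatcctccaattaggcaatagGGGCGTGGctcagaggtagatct
Hdgfl2: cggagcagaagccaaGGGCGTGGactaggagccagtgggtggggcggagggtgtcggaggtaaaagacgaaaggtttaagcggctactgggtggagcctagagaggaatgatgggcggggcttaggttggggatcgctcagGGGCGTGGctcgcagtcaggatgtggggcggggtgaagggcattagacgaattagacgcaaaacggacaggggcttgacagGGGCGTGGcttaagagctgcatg
Itprid2: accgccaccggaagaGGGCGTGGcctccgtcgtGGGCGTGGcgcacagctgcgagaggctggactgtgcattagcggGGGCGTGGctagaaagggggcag
Krt8: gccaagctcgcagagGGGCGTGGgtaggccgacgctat

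In the Rubcnl and Lrrc4b sites the motif stood in tandem repeats, and the repeats differed in methylation. The Rubcnl site has 5 copies of GGGCGTGG, spaced 36 to 37 bp apart, and 23 of 45 reads at their CpGs were methylated, from 2 of 11 at the copy whose CpG is at 75064775 to 8 of 9 at the copy at 75064812. The Lrrc4b site, in an intron of a gene for a synaptic adhesion protein listed at 0.17 TPM, has 6 copies spaced 53 to 54 bp apart, of which 5 are in the printed stretch. There 2 of 514 reads were methylated, at most 1 of 102 or 103 at any copy. Both sites lay away from promoters, the first with a peak in 3 and the second in all 8 ATAC-type libraries. At Gm4065, with 5 copies, 10 of 29 reads were methylated, and 3 of the copies had no cytosine of sufficient depth. Its printed stretch holds 4 of them, the first overlapping a GGGTGTGG. How reads were placed within these repeats was not tested.

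The promoter sites with most reads on the motif were unmethylated at it. Hdgfl2, which encodes a chromatin-binding protein related to hepatoma-derived growth factor, had 3 copies with 0 of 161, 0 of 74 and 0 of 135 reads methylated. Itprid2 had 3 copies with 0 of 60, 0 of 58 and 0 of 65. Tmem123 had 0 of 218 over all copies. The site near Krt8, the keratin of simple epithelia, has 1 copy with 0 of 25, which allows up to 13.3%. At Prdx6, whose product reduces peroxides and which was expressed at 202.6 TPM, a distal site 5882 bp from the start had 15 of 32 motif reads methylated. The site in an intron of Ankrd27 had 12 of 36. Both were named after seeing their values.

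Genes beside promoter sites were well expressed, and those nearest to distal sites less so. The RNA values are TPM merged over replicates by the authors, so no replicate spread can be given and the depth is unknown, and in bulk RNA fewer expressing cells cannot be told apart from less RNA per cell. A site lay within 3 kb of a start of 985 genes, 925 of them with a TPM, or 1.96% of 47187 genes. Their median was 12.8 TPM (95% order-statistic interval 10.7 to 15.2), against 3.07 TPM (2.86 to 3.31) for genes with any M-ATAC region there. Over genes of at least 1 TPM the median at sites was 22.7 TPM. At least 10 TPM was reached by 503 of them (54.4%), against 37.3%. Among protein-coding genes the medians were 19.3 TPM (16.4 to 22.2) and 10.9 TPM (10.5 to 11.4). For distal sites the nearest gene had a median of 1.17 TPM (0.4 to 3.56), against 0.1 TPM for all distal regions, and restricted to protein-coding genes 9.88 TPM (6.57 to 13.5) against 5.29 TPM (4.87 to 5.73). The higher level thus held for promoter and distal sites and for coding genes alone. Regions with a site were also wider and more accessible than the others, and the part of these differences was not tested.

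The most expressed genes with a site were Rps15 (3859 TPM) and Rpl31 (2256 TPM), both for ribosomal proteins, Mif (2018 TPM), for a secreted cytokine, Rpl18 (1993 TPM), which shares its site with Sphk2, a sphingosine kinase gene, and Actb (1746 TPM), for beta-actin. Methylation was 0 of 587 reads at Rps15, 1 of 1091 at Rpl31, 0 of 876 at Mif, 1 of 74 at the Rpl18 site and 1 of 1556 at Actb. The 5 sites with the lowest p in both WT lists and most reads were at Aktip, a gene of vesicle transport (38.9 TPM), Esrra, for an orphan nuclear receptor of energy metabolism (9.49 TPM), Gm43094, Lonp2, for a peroxisomal protease (28.2 TPM), and Osbpl9, for a lipid transfer protein (47.8 TPM). The lists chose these sites, so their p is a description. All 5 lay within 3 kb of a start and had a peak in all 8 ATAC-type libraries, with M-ATAC folds of 15.7 to 20.7. Their methylation was from 0.194% at Esrra to 0.378% at Osbpl9, apart from Gm43094, which had 29 of 1357 reads methylated, or 2.14% (1.49 to 3.05). They were picked for their reads, and the 44 sites at the lowest p had 1.49% methylation together. None of these 5 segments held GGGTGTGG or GGGCGTGG, and each held GGGCGGGG, from 1 time at Esrra, Lonp2 and Osbpl9 to 5 times at Gm43094. Over the 44 sites, 40.9% had GGGTGTGG or GGGCGTGG in their window, against 44.0% of the other sites.

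The embryonic stem cell markers were all expressed in the RNA-seq, 8 of 8 at 1 TPM or more, summing to 8588 TPM, with Dppa5a the highest at 5394 TPM and Pou5f1 at 657 TPM. Klf4 itself had 270.4 TPM. Of the feeder fibroblast markers 6 of 8 reached 1 TPM, summing to 125.7 TPM, with Col1a1 the highest at 48.7 TPM, while Lum was at 0.08 TPM and Twist2 at 0.43 TPM. The feeder sum was far below that of the stem cell markers, and its part in the medians above was not tested. No marker of either list had a site within 3 kb, 0 of 8 in each, beside 6.14% of genes of at least 10 TPM and 1.96% of all genes. Lists of 8 genes are too short to set 0 apart from these shares. With knockout and mutant peaks kept, 1 of 8 in each list had an accessible segment of both WT lists there, Zfp42 and Col1a1.

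Genes of the pluripotency network were looked up by list. Of 20 naive pluripotency factors, all with an M-ATAC region within 3 kb, Tfcp2l1 alone had a site (1 of 20, 5%), beside 6.14% of genes of at least 10 TPM and 1.96% of all genes. Tfcp2l1 encodes a transcription factor that sustains self-renewal under LIF and was expressed at 95.1 TPM. Its site, on chromosome 1 from 118627701 to 118628000, was centred 94 bp from the start, with 3 of 530 reads methylated, or 0.566% (0.193 to 1.65), and 2 copies of GGGCGTGG with 0 of 54 reads methylated. Prdm14, a repressor of differentiation and of de novo methylation (18.6 TPM), had a site 23112 bp from its start, at an M-ATAC fold of 14.4, with 1 GGGTGTGG and 2 of 286 reads methylated. Among LIF and STAT3 genes Pim3, a kinase gene (93.2 TPM), had a site (1 of 10), with 2 of 1054 reads methylated. Among primed and formative genes it was Dnmt3b (1 of 9), the de novo methyltransferase gene (48.6 TPM), whose site had 0 of 119 reads methylated, no motif and a peak in 0 of 8 ATAC-type libraries. That site lay 559 bp from Dnmt3b and closer to its antisense gene Dnmt3bos. Lineage transcription factors had a site in 0 of 16 and Wnt and FGF genes in 0 of 12, of which Etv5, an effector of FGF signalling (84.3 TPM), had a site in its intron 7463 bp from the start, with 1 of 107 reads methylated.

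In the Klf and Sp family, which shares the DNA-binding domain of KLF4, 2 of the 22 listed genes had a site. The list leaves out Klf2, Klf4 and Klf5, which are among the naive factors above and had none. Klf9 (96.2 TPM) had 0 of 252 reads methylated and a peak in all 8 libraries, and Klf14 (0.07 TPM) had 1 of 70 and a peak in 2. A site 20667 bp from Klf3 (97.5 TPM), itself a repressor of the family, had 2 copies of GGGTGTGG and 6 of 17 reads methylated, or 35.3% (17.3 to 58.7), in a region present in the merged list only. Mbd3, of the NuRD repressor complex, had the site of the list for DNA methylation and demethylation (1 of 13, 95.6 TPM), at 2 of 1844 reads methylated and an M-ATAC fold of 17.99. That list leaves out Dnmt3a and Dnmt3b, which are in the primed list. Krt8 had the site of the epithelial list (1 of 12, 47.0 TPM). With lists this short, each share rests on 0 to 2 genes. Before any segment was removed for a knockout or mutant peak, Zfp42, Lifr, Junb, Klf3, Klf10, Klf11, Klf13, Mbd2, Krt18, Etv5 and Col1a1 also had an accessible segment of both WT lists within 3 kb, which gave 6 of 22 Klf and Sp genes, 3 of 10 LIF and STAT3 genes, 2 of 20 naive factors, 1 of 9 primed genes, 2 of 13 genes of DNA methylation, 2 of 12 epithelial genes, 1 of 12 Wnt and FGF genes and 0 of 16 lineage factors, beside 1643 of all 47187 genes (3.48%) and 899 of the 8196 genes of at least 10 TPM (11.0%).

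Accessibility was tested between regions, since the fold enrichment in the 8 libraries played no part in telling sites from other accessible regions. A median covers the regions with a peak in that library, which in M-ATAC were 747 to 832 of the 1088 regions with a site and 24820 to 27915 of the 65638 others. In M-ATAC the median fold of regions with a site was 8.88, 9.35, 7.87 and 7.86 in replicates 1 to 4, and that of the other regions 7.09, 7.54, 6.84 and 6.96. In M-ATAC-NC it was 7.46 and 7.90 against 6.39 and 6.68. In ATAC it was 6.01 and 6.27 against 5.69 and 5.74. Regions with a site were higher in 8 of 8 libraries, by 1.08 ± 0.531 (SD, n = 8) fold units on average (exact two-sided sign-flip permutation test, p = 0.00781, the smallest 8 libraries allow, and 0.0156 after Benjamini-Hochberg adjustment over 2 tests). The M-ATAC-NC libraries are aliquots of tagmented DNA, so not all 8 are separate. The study describes M-ATAC of mESC in duplicate, whereas 4 M-ATAC samples are listed, so these 4 may not all be separate either. With replicate numbers kept together as a replicate block, the exact permutation test cannot go below 0.125 and gave that value, 0.25 after adjustment. With the 4 unconverted libraries alone the difference was 0.786, with adjusted p = 0.25 in the exact permutation test, where 0.125 is the smallest p possible. The difference was 1.16 at promoters and 0.3997 away from them, a split chosen after seeing the data, with adjusted p = 0.141 for the latter in the exact permutation test. Among regions 300 to 600 bp wide, a limit also chosen after seeing the data, the difference was 0.608. A peak in all 8 libraries was present for 494 of 1088 regions (45.4%), against 18.4% of all regions.

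For CTCF, the insulator protein, no difference beyond the spread between libraries was found. A CTCF peak in any of the 6 libraries overlapped 171 of 1088 regions with a site, or 15.7%, against 15.3% of all regions. In CTCF M-ChIP it was 10.7% and 9.19% in replicates 1 and 2, against 11.7% and 9.81% of other regions. In the aliquots before conversion it was 9.19% and 10.3% against 9.05% and 10.7%, and in conventional CTCF ChIP 13.2% and 15.4% against 13.1% and 15.0%. The difference was -0.230 ± 0.537 percentage points (SD, n = 6), higher in 3 of 6 libraries (exact two-sided sign-flip permutation test, p = 0.375, adjusted p = 0.375, smallest possible 0.0313). Regions with a site were also wider, with a median of 455 bp against 281 bp, and more often at promoters. Among regions 300 to 600 bp wide, a limit chosen after seeing the data, the difference was -0.272. The part of place was not tested.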

How the data were processed

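RNA-seq, accessibility and immunoprecipitation libraries of mESC were processed by the authors with Trim Galore 0.4.4, Bismark 0.18.1 or Bowtie2 (mm10), SAMtools 1.3 and MACS, and per the file names the KLF4 reads were subsampled before PeaKDEck. The deposited peak lists give a score, a fold enrichment, −log10 p and −log10 q from MACS, and the deposited PeaKDEck lists a p-value per peak, all called per sample apart from the merged lists. The deposited cytosine table gives counts of methylated and unmethylated reads and their percent, pooled over replicates. The deposited TPM values are merged over replicates by the authors, with HTSeq named in their processing notes.

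Lists were merged, intersected by at least 1 bp and annotated with GENCODE M21 in python 3.11.15 with numpy 2.4.6, pandas 2.3.3, scipy 1.17.1 and pyfaidx 0.9.0.4, and the overlaps were tested on simulated data against bedtools 2.31.1. Cytosines needed 5 reads, promoters reach 3 kb, intervals are 95%. Repeated listings of a cytosine were counted once, 1636992 cytosines in all and 1033385 with 5 reads. Of 47606 genes with a TPM, 47187 were in the annotation.

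The members and the gene lists were chosen with earlier results of these data known. Named sites were the 5 with the lowest larger p, the 5 with the highest lower bound and the 5 with the lowest upper bound of methylation among sites with at least 5 cytosines, the 5 with most reads at a CpG of GGGCGTGG, the 5 with the highest TPM within 3 kb, and every site within 3 kb of, or nearest to, a gene of the lists. A site that this rule names is not reported here. Alternatives are given in the closing section. The cytosine table of CTCF peaks, the CTCF motif matches and the samples titled KLF4-M-ChIP were not used here. Sequences are from RefSeq GRCm38.p6.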

Additional observations from a re-analysis of the deposited data

Results flagged for a closer look

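The CTCF difference between regions with a site and other regions had opposite signs in converted and conventional libraries. It was -0.998 and -0.617 percentage points in CTCF M-ChIP replicates 1 and 2, and 0.109 and 0.410 in CTCF ChIP replicates 1 and 2. Every library of the converted kind was thus below 0 and every library of the other above it, with 2 libraries on each side. The CTCF M-ChIP aliquots before conversion, replicates 1 and 2, were on both sides of 0, at 0.142 and -0.427, and the difference between the kinds was not tested.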

How the results depend on the processing

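Of 74 alternatives, 43 kept the result, which means the direction and the side of the threshold for a test, a value within its 95% interval for a level or share, and a count within 1.5 times for the number of sites. For 7 of these, all of the CTCF difference, the smallest p possible was above the threshold, so they say nothing of stability, which leaves 36. The cause of the other changes was not tested unless the alternative itself sets it. The number of sites was 1881 with knockout peaks kept, 603 in regions present in all 4 M-ATAC replicates, and 1081 to 3109 when 1 list was left out. The highest came without WT replicate 1, and without WT replicate 2 there were 1613. Methylation inside sites was 0.759% at cytosines with at least 1 read, 0.521% with at least 10, and 1.08% as a mean of percentages, and 0.642% to 0.701% when 1 list was left out. The difference from other regions was -1.70, -0.597 and -1.95 under those settings, and, under settings chosen after seeing the data, -0.426 at promoters, -4.52 elsewhere and -1.64 against regions without a KLF4-list peak. The difference from the flanks was 0.334 as a mean of percentages, reversed to -0.0330 at promoters and to -0.503 elsewhere, and, as means of percentages, was 0.0335 at promoters and reversed to -0.165 elsewhere, splits chosen after seeing the data.

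The promoter share was 61.0% within 1 kb and 61.5% with protein-coding genes, and the median 15.3 TPM within 1 kb and 22.7 TPM for genes of at least 1 TPM. The motif share was 74.7% with 4 motifs and 37.4% to 40.0% when 1 WT list was left out. At promoters it was 38.6% and elsewhere 54.4%, a split chosen after seeing the data. The accessibility difference was 0.786 with unconverted libraries, 0.3997 away from promoters, a split chosen after seeing the data, and 1.08 with the replicate block, each no longer past the threshold, which the first and the last could not reach, and 0.981 to 1.19 when 1 library was left out, with an adjusted exact permutation p of 0.0313 throughout. The CTCF difference was 0.0437 with the peak summit inside the region, a reversal of a difference that had not passed its test, -0.230 with the replicate block (adjusted exact permutation p = 0.5, the smallest possible), and -0.358 to -0.0767 when 1 library was left out, where an exact permutation p cannot go below 0.0625. Depth limits the levels of single sites, with a median of 53 reads at distal sites against 476 at promoters.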
